A study of Mus musculus with 203 samples.

Results

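The clustered protocadherins are cell surface adhesion proteins encoded side by side in the alpha, beta and gamma gene clusters. Their isoform genes were selected from the count table by name, as every row that begins with Pcdha, Pcdhb or Pcdhg followed by an optional letter and a number, which gave 58 of the 24029 genes in the table. Of these, 14 belong to the alpha cluster, 22 to the beta cluster and 22 to the gamma cluster. The clusters lie one after the other on the plus strand of mouse chromosome 18 (GRCm38), with the alpha cluster at chr18:36930285-37188897, the beta cluster at chr18:37264998-37521419 and the gamma cluster at chr18:37661775-37841873.

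The neurons came from the nucleus ambiguus (Amb), a brainstem nucleus that holds parasympathetic neurons of the heart and motor neurons of the larynx. Wild-type C57BL/6 mice (C57BL/6NCrl in the study's methods) received the retrograde tracer cholera toxin B on postnatal day 1, into the pericardial space or into the cricothyroid muscle of the larynx, and labeled cell bodies were aspirated from brainstem slices on postnatal days 2 to 4. Each neuron was sequenced on its own with Smart-seq2, a full-length protocol without molecular identifiers. The deposited annotation assigned 53 neurons to ACP and 98 to ACV, all traced from the heart, and 52 to Larynx, all traced from the larynx.

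Each alpha or gamma isoform gene has its own promoter and its own large first exon, which codes for the extracellular part of the protein and is spliced to constant exons shared by the cluster. Beta genes consist of an exon of their own. In many neurons a promoter choice that involves CTCF, cohesin and DNA methylation turns on a small, varied set of alternate isoforms, and the resulting mixture on the surface is thought to let a neuron tell its own branches from those of its neighbours. The C-type isoforms Pcdhac1, Pcdhac2, Pcdhgc3, Pcdhgc4 and Pcdhgc5 sit at the ends of the alpha and gamma clusters, are regulated differently and are often shared by many neurons. The 58 genes thus split into 53 alternates, of which 12 are alpha, 22 beta, 12 gamma-a and 7 gamma-b, and 5 C-type genes. In the RefSeq annotation Pcdhgb8 is a transcribed pseudogene.

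The counts let the presence of each isoform be read neuron by neuron. A gene was counted as present in a neuron at 5 or more reads, and levels are given as counts per 10000 of the counts outside Rn45s, the gene of the ribosomal RNA precursor, which took a mean of 37% of the counts in ACP, 38.5% in ACV and 58.2% in Larynx neurons. The total counts ran from 542162 to 3292763 per neuron. Outside Rn45s the median depth was 1115375 counts in ACP, 1120512 in ACV and 560892 in Larynx, with a lowest value of 118492 in a Larynx neuron, and the median number of genes detected was 7903, 7627 and 7594. No label names the mouse a neuron came from, so each type stands as 1 sample, no test between types was possible, and the tracing site and any difference between mice cannot be told apart from the Larynx type. Intervals on shares are exact 95% binomial intervals (Clopper-Pearson), intervals on summed reads are exact Poisson intervals, and both cover counting error only. For a gene found in no neuron of a group, the limit given is the share that 3 neurons would make.

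The cholinergic transporter gene Slc18a3, which defines motor neurons of the brainstem, was present in 53 of 53 ACP, 98 of 98 ACV and 49 of 52 Larynx neurons. RNA of other cells was also counted: the 7 astrocyte markers summed to a median of 20.8, 24.9 and 32.2 counts per 10000 in ACP, ACV and Larynx, and their sums ranged from 1.3 in an ACV neuron to 316 in another. Apoe alone reached 6357 counts in ACP, 45046 in ACV and 1784 in Larynx, and 11 ACP and 28 ACV neurons exceeded the limit of 1800 Apoe counts that the study names for leaving neurons out. Of the 3 serotonergic genes, the transporter gene Slc6a4 was present in 11 ACP, 0 ACV and 3 Larynx neurons, the synthesis enzyme gene Tph2 in 5, 1 and 1, and the transcription factor gene Fev in 0, 2 and 0. The 4 inhibitory neuron markers summed to a median of 0.284 counts per 10000 in ACP (0 to 17.9), 0.0964 in ACV (0 to 18) and 0.582 in Larynx (0 to 9.26), and Gad1 among them was present in 43.4%, 29.6% and 51.9% of neurons. The part of RNA from other cells in the protocadherin counts was not tested. Across neurons, the number of alternates had a correlation of 0.02 with the Apoe count (Pearson, over all neurons, a description), with -0.01 within ACP, 0.03 within ACV and 0.25 within Larynx. The Apoe counts were not scaled for depth and include the ACV neuron at 45046. In neurons with at most 900 Apoe counts the mean number of isoforms was 7.65 in ACP, 5.02 in ACV and 5.08 in Larynx. Over all neurons it was 7.64, 5.80 and 5.69.

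Most isoforms were absent from most neurons, and those present often held 20 or more reads. Among the 11774 values of 58 genes in all neurons, 10094 were 0, 411 were 1 to 4 reads, 453 were 5 to 19 reads and 816 were 20 or more reads. Thus 75.5% of the values above 0 passed the limit of 5 reads, beside 87.2% over all genes of the table. At 20 or more reads these shares were 48.6% and 70.8%, so the members were covered less well than genes in general. Reads were found for 55 members, and each of these 55 was present in at least 1 neuron. Pcdha4, Pcdha6 and Pcdha7 were listed at 0 in every neuron, where 3 neurons would be 1.48% of all. In RefSeq, the readthrough genes Gm37013, Gm38666 and Gm38667 start at Pcdha4, Pcdha6 and Pcdha7 and run on to the end of the gamma cluster. Gm37013 held 2 reads in 1 neuron, Gm38666 held 16 reads over 9 neurons, and Gm38667 has no row in the table. How reads shared by such genes, or by the constant exons, were counted is not given in the sources used here, and the part of the counting in these 0 values was not tested. Every alpha number that follows is thus a number over 9 alternates.

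**Figure D1:**
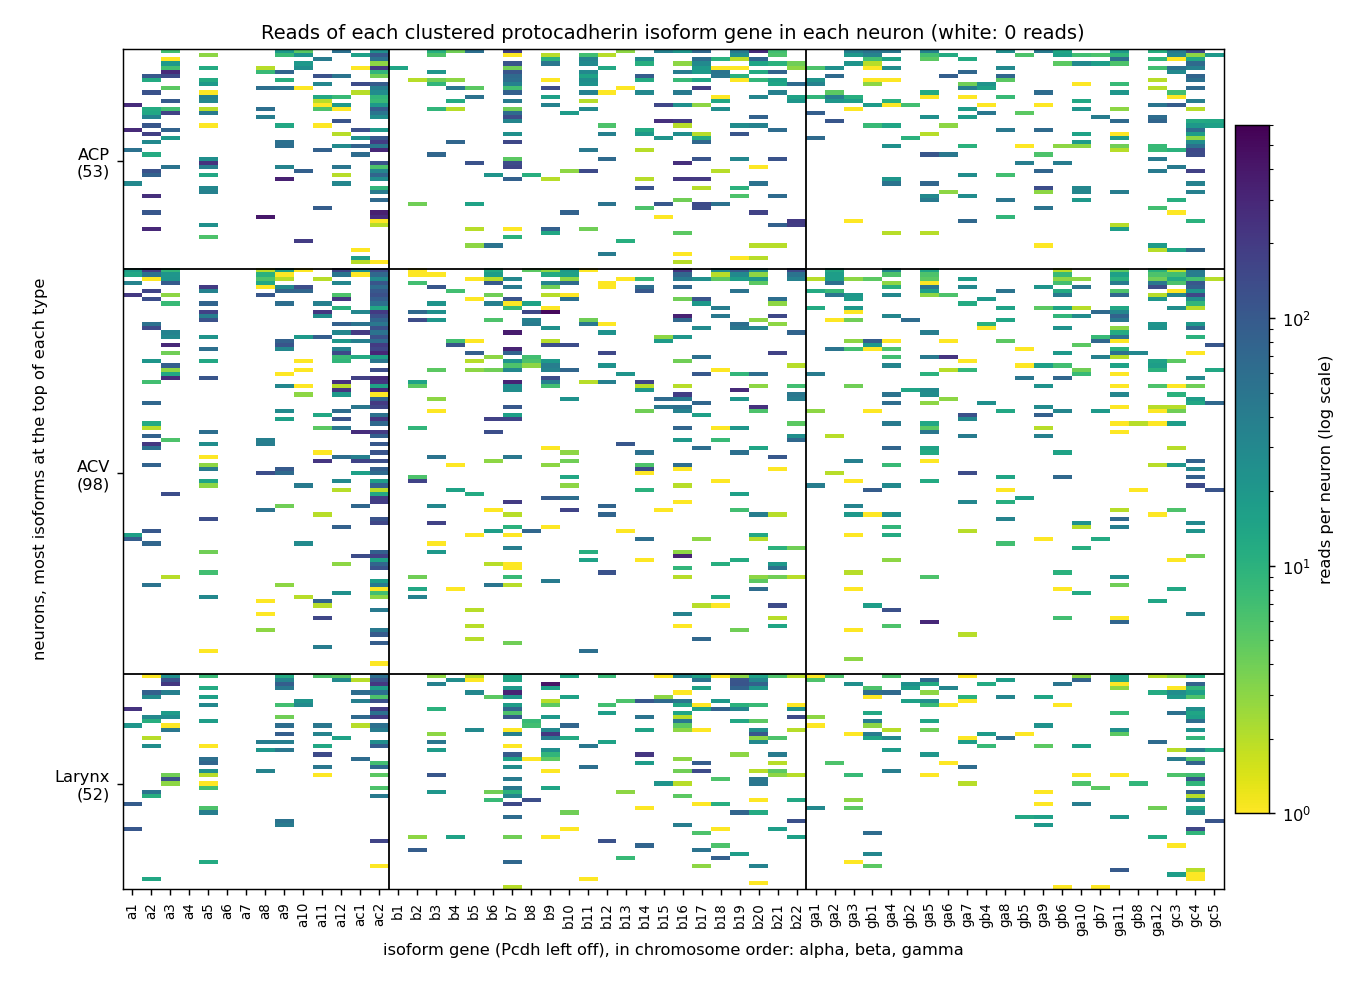
Reads of each isoform gene (columns, in chromosome order, with the Pcdh prefix left off) in each neuron (rows, grouped into 53 ACP, 98 ACV and 52 Larynx neurons and sorted by the number of isoforms present), on a log colour scale with white for 0 reads. The ac2, gc4 and b7 columns are the most filled, the a4, a6 and a7 columns are empty, and most other columns are filled in scattered neurons of every type.

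Neurons at the median, picked by a rule set after the data were seen, show what such a set looks like. The deepest ACP neuron at its type's median of 7 isoforms held Pcdhac2 at 1.39 counts per 10000, Pcdhgc4 at 0.70, Pcdha11 at 0.388, Pcdha1 at 0.26, Pcdhb11 at 0.213, Pcdhgc3 at 0.0473 and Pcdhga12 at 0.0378, where the last of these rested on 8 reads. An ACV neuron, chosen the same way at a median of 5, held Pcdha11 at 1.0 counts per 10000, Pcdhac1 at 0.761, Pcdhac2 at 0.593, Pcdhgc4 at 0.356 and Pcdhga3 at 0.169. A Larynx neuron, also at a median of 5, held Pcdha3 at 1.57 counts per 10000, Pcdhgc4 at 1.41, Pcdhb20 at 0.632, Pcdhb7 at 0.542 and Pcdhb18 at 0.0774. The 3 neurons had Pcdhgc4 in common, the ACP and ACV neurons also Pcdhac2 and Pcdha11, and no beta or gamma alternate was present in more than 1 of them. At the other extreme, an ACP neuron with 10169 genes detected held 25 isoforms, of which Pcdhb20 at 276 reads was the highest.

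A neuron held a median of 5 isoforms, with a range of 0 to 25 and a mean of 6.25 ± 4.42 (SD over neurons). The median was 7 in ACP (range 0 to 25), 5 in ACV (0 to 21) and 5 in Larynx (0 to 17), with means of 7.64 ± 5.0 (n = 53), 5.80 ± 4.26 (n = 98) and 5.69 ± 3.82 (n = 52). The ranges of the types overlapped over nearly their whole length, and the differences between the means were smaller than the SD over neurons. No isoform was present in 9 neurons, namely 2 ACP, 5 ACV and 2 Larynx neurons. Because Larynx neurons had fewer counts outside Rn45s, the numbers were also computed for 300000 such counts per neuron, the mean expected when each neuron is thinned to that depth. The thinned means were 5.16 in ACP, 4.08 in ACV and 4.94 in Larynx, where 8 Larynx neurons were too shallow and the remaining 44 had an unthinned mean of 6.34. At equal depth Larynx was thus nearer to ACP than to ACV, whereas at the deposited depth it was nearer to ACV.

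The clusters contributed unequally. Of the alpha alternates a neuron held a mean of 1.53 ± 1.15 in ACP, 1.13 ± 1.2 in ACV and 1.10 ± 1.03 in Larynx, and over all types 74 neurons held exactly 1, 43 held 2 and 61 held none. Of the beta genes, the means were 2.66 ± 2.21, 1.95 ± 1.70 and 2.33 ± 1.67. Gamma-a alternates were present at means of 1.75 ± 1.60, 1.23 ± 1.43 and 0.846 ± 1.02, in an order that ran from ACP down to Larynx. After thinning, these gamma-a means were 1.03, 0.678 and 0.619, and the ACV and Larynx values lay close together, while the thinned beta means were 1.88, 1.46 and 2.06, with Larynx the highest. Gamma-b alternates were the rarest, at 0.377 ± 0.814, 0.347 ± 0.558 and 0.365 ± 0.658. All 3 clusters had an alternate present in 35 ACP neurons (66%), 43 ACV neurons (43.9%) and 24 Larynx neurons (46.2%).

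**Figure D2:**
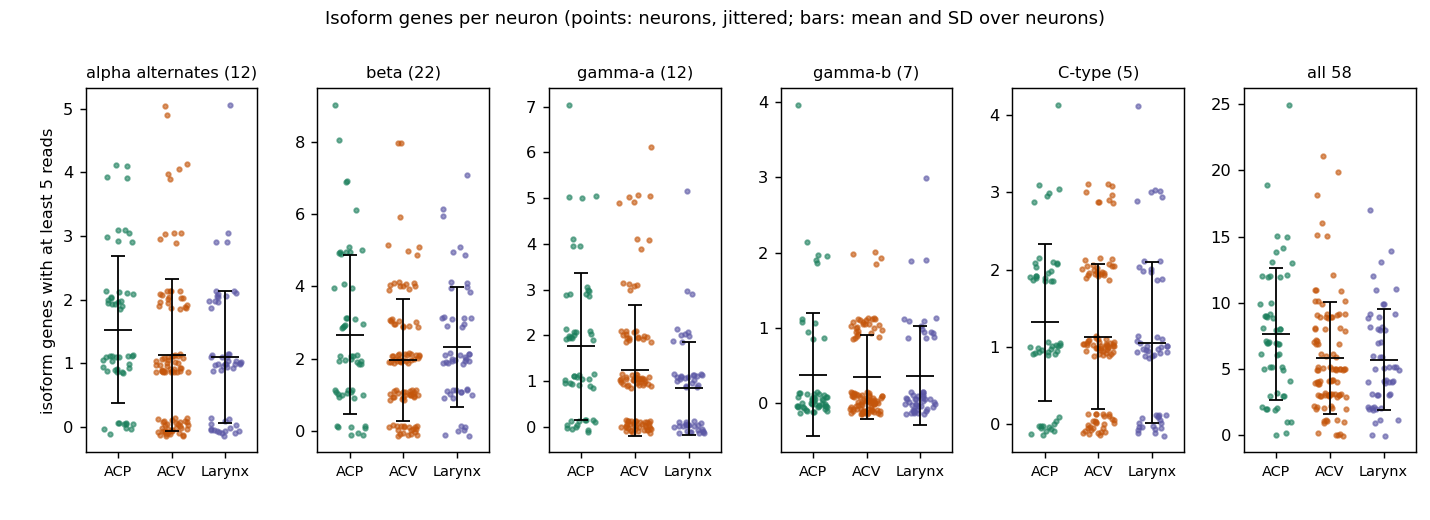
Isoform genes with at least 5 reads per neuron, by class of isoform and type, with 1 point per neuron (jittered) and the mean and SD over neurons in black. Within every class the 3 types overlap, and the gamma-a means run from 1.75 in ACP to 0.846 in Larynx at the deposited depth.

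The number of alternates followed the number of genes detected. The correlation across neurons was 0.71 (Pearson, over all neurons), and it was 0.70 within ACP, 0.74 within ACV and 0.69 within Larynx. These are descriptions, since the 2 numbers come from the same library. With counts outside Rn45s the correlation was weaker in the cardiac types, at 0.16 in ACP and 0.35 in ACV, and stood at 0.64 in Larynx. In the 68 neurons with the fewest genes detected (3216 to 6818) the mean number of isoforms was 3.31 ± 2.23, in the next 67 it was 5.37 ± 3.01 and in the 68 with the most (8488 to 12374) it was 10.1 ± 4.54. Within these last neurons the means were 11.3 ± 5.15 in 20 ACP, 9.58 ± 4.53 in 33 ACV and 9.47 ± 3.58 in 15 Larynx neurons. The 15 neurons without any alternate had a median of 5302 genes detected, against 7901 in the rest, and Pcdhac2 was present in 3 of them. A neuron with no alternate can therefore not be read as one that uses none.

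**Figure D3:**
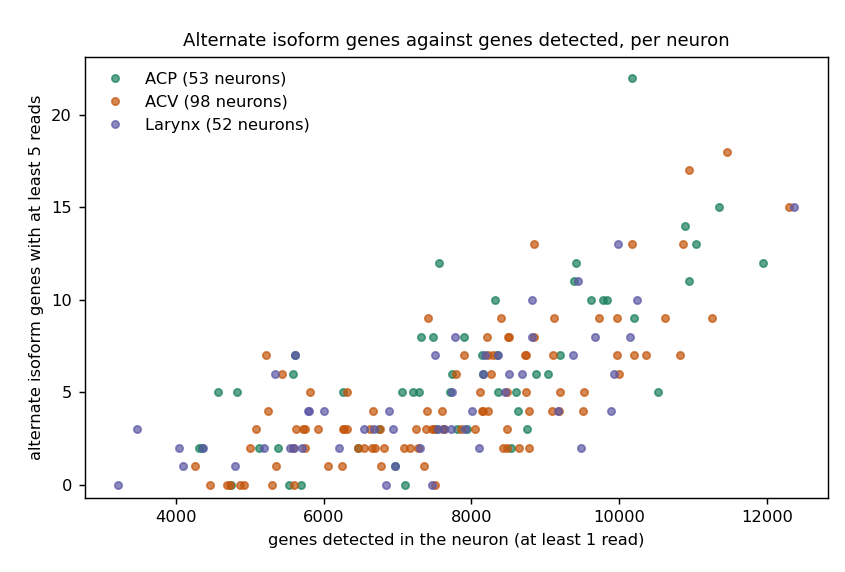
Alternate isoform genes with at least 5 reads against genes detected with at least 1 read, 1 point per neuron, coloured by type. The number of alternates rises with genes detected within each type, and no neuron at 0 has more than 7501 genes detected.

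The 5 C-type genes were led by Pcdhac2, the last isoform of the alpha cluster. It was present in 53.7% of neurons (46.6 to 60.7), in the largest share of neurons of any member. It was found in 29 ACP, 60 ACV and 20 Larynx neurons. By type the share was 54.7% (40.5 to 68.4) in ACP, 61.2% (50.9 to 70.9) in ACV and 38.5% (25.3 to 53) in Larynx. The lowest count was 0 in each type, the median was 9 reads in ACP, 45 in ACV and 0 in Larynx, and the highest was 340, 293 and 214 reads. Its mean level was 0.366 ± 0.644 counts per 10000 in ACP, 0.53 ± 0.687 in ACV and 0.39 ± 0.759 in Larynx (SD over neurons). The level was thus highest in ACV, as the share was, but was similar in ACP and Larynx, and each mean was smaller than its SD.

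Pcdhgc4, a gamma C-type isoform known for its role in the survival of interneurons and other neurons, was present in 66 neurons (32.5%, 26.1 to 39.4) and had the opposite order. Its share was 39.6% (26.5 to 54) in ACP, 22.4% (14.6 to 32) in ACV and 44.2% (30.5 to 58.7) in Larynx. The lowest count was 0 in each type, the median was 0 reads in ACP, 0 in ACV and 1 in Larynx, and the highest level was 1.64, 1.87 and 3.41 counts per 10000. Its mean level was 0.204 ± 0.361 counts per 10000 in ACP, 0.0932 ± 0.28 in ACV and 0.259 ± 0.568 in Larynx. It was present in 21 ACP, 22 ACV and 23 Larynx neurons, so that high neurons were found in every type. The summed inhibitory neuron markers given above, with Gad1 among them, had the same order of types. So did the share of the excitatory neuron marker Slc17a6, present in 54.7% of ACP, 52% of ACV and 76.9% of Larynx neurons. Its mean level had another order, at 0.309 counts per 10000 in ACP, 0.755 in ACV and 1.47 in Larynx. The part of RNA from such neurons in the Pcdhgc4 values was not tested. The summed reads were 1302 (1232 to 1375), 1084 (1020 to 1151) and 841 (785 to 900). The share in ACV minus that in Larynx was 22.8 points for Pcdhac2 and -21.8 points for Pcdhgc4. Of the 58 members, these were the only ones whose share differed by 20 points or more between any 2 types. Over all genes tested the background was 10.7% for ACV and Larynx, 4.53% for ACP and ACV and 11.1% for ACP and Larynx. Thinned to equal depth, these differences became 19.6 points for Pcdhac2 and -22.2 points for Pcdhgc4, and that of Pcdhb7, an alternate, reached -20 points. With 20 reads as the limit, Pcdhgc4 was present in 32.1% of ACP, 17.3% of ACV and 21.2% of Larynx neurons, so that most of its difference between ACV and Larynx lay in Larynx neurons with 5 to 19 reads, while Pcdhac2 stood at 41.5%, 53.1% and 28.8%.

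The remaining C-type genes were rarer. Pcdhac1 was present in 12.3% of neurons (8.13 to 17.6), with a highest count of 262 reads in an ACV neuron. Pcdhgc3 was present in 13.3% (8.95 to 18.8), with up to 90 reads in an ACP neuron, and its share was 18.9% in ACP, 11.2% in ACV and 11.5% in Larynx. Pcdhgc5 was present in 9 neurons (4.43%, 2.05 to 8.25). None of the 5 C-type genes was present in 59 neurons, 1 was present in 75, 2 in 48, 3 in 19 and 4 in 2. Pcdhac2 and Pcdhgc4 were present together in 41 neurons, where the product of their shares gives 35.4, and Pcdhac1 and Pcdhac2 in 20, where it gives 13.4.

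**Figure D4:**
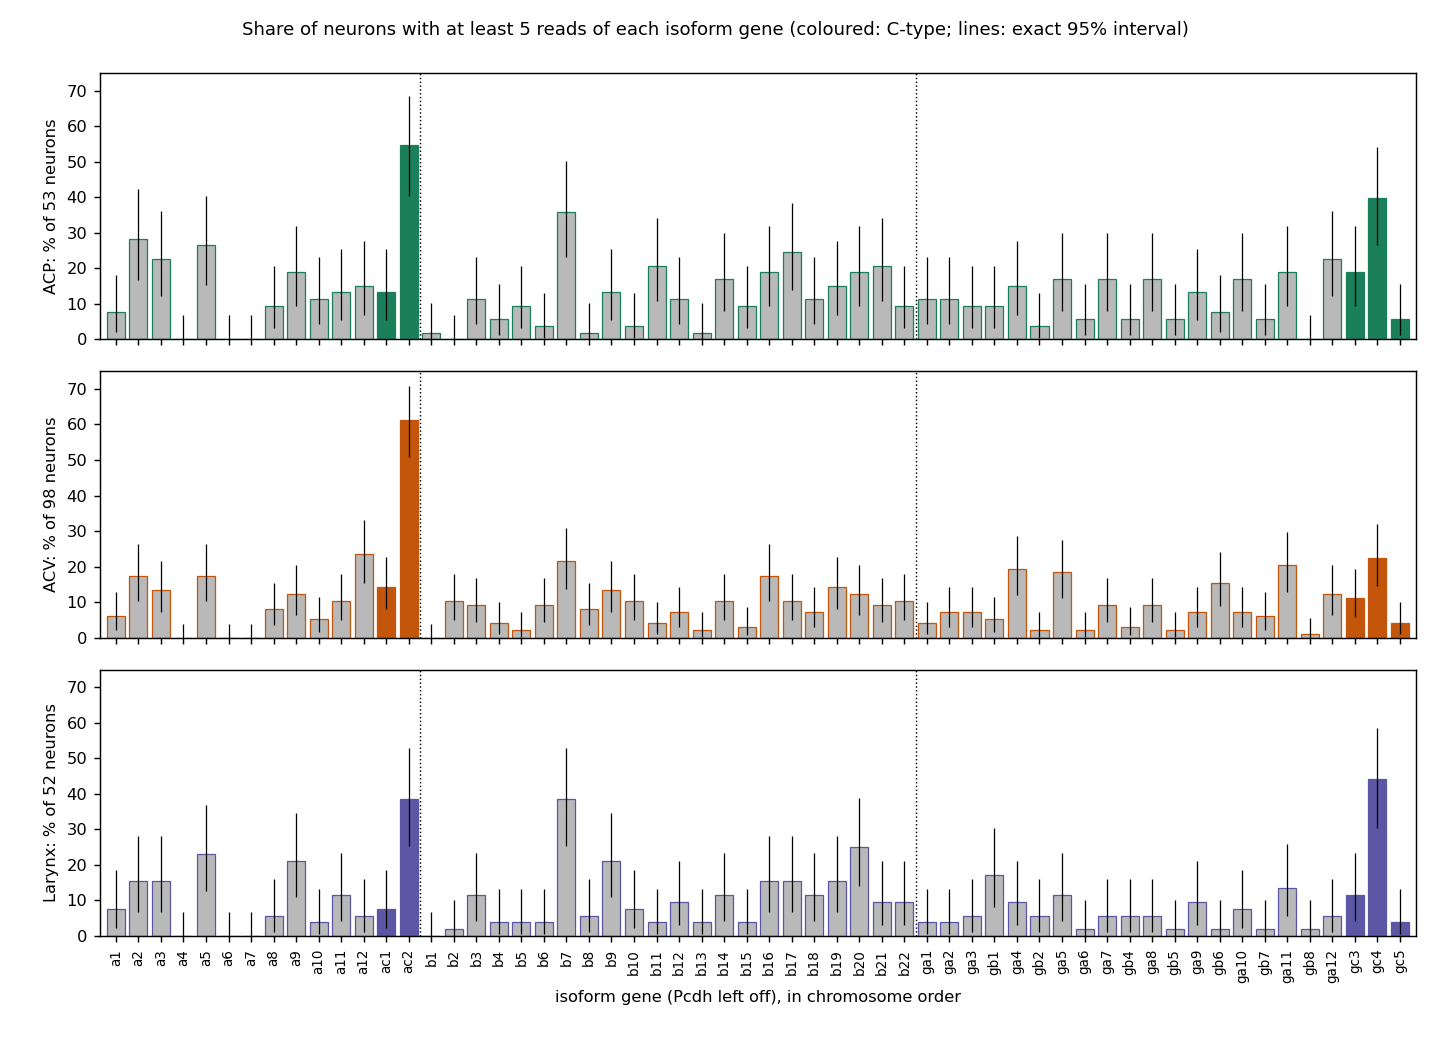
Share of neurons with at least 5 reads of each isoform gene in ACP, ACV and Larynx, in chromosome order with the Pcdh prefix left off. Coloured bars are the C-type genes, grey bars the alternates, and lines the exact 95% binomial intervals, which cover counting error only. Pcdhac2 at 61.2% in ACV is the highest bar, Pcdhgc4 stands above the alternates of its panel in ACP and Larynx, and most alternates lie below 25% in every type.

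Among the alternates, Pcdhb7 was present in the largest share of neurons, 29.6% (23.4 to 36.4). Its share was 35.8% (23.1 to 50.2) in ACP, 21.4% (13.8 to 30.9) in ACV and 38.5% (25.3 to 53) in Larynx, so that in Larynx it equalled Pcdhac2. The next beta genes were Pcdhb16 and Pcdhb20, both at 17.2%. Pcdhb16 varied little by type, at 18.9%, 17.3% and 15.4%, whereas Pcdhb20 stood at 18.9%, 12.2% and 25%. The rarest beta genes were Pcdhb1, found in 1 ACP neuron with 14 reads, Pcdhb13 at 2.46%, and Pcdhb4 and Pcdhb5, both at 4.43%.

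In the alpha cluster Pcdha5 was present in 21.2% of neurons (15.8 to 27.5), Pcdha2 in 19.7% (14.5 to 25.9) and Pcdha12 in 16.7% (11.9 to 22.6). Pcdha5 and Pcdha2 lay at 26.4% and 28.3% in ACP, both at 17.3% in ACV, and at 23.1% and 15.4% in Larynx. Thinned to equal depth, Pcdha5 stood at 15.6% in ACP, 13.7% in ACV and 16.2% in Larynx, and Pcdha2 at 22.2%, 15.4% and 12.8%. At the deposited depth Pcdha12 had another order, with 15.1% in ACP, 23.5% in ACV and 5.77% in Larynx, where 3 of 52 neurons held it. Below the 3 genes listed at 0, the rarest was Pcdha10 at 6.40%, followed by Pcdha1 at 6.90% and Pcdha8 at 7.88%. Pcdha8 also gave the highest count of an alpha alternate, 396 reads in an ACP neuron.

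In the gamma cluster the most frequent alternates were Pcdhga11 at 18.2% (13.2 to 24.2), Pcdhga5 at 16.3% and Pcdhga4 at 15.8%, and at the deposited depth these 3 were highest in ACV, at 20.4%, 18.4% and 19.4%. Thinned to equal depth, ACV stayed the highest for Pcdhga11 and Pcdhga4, and Pcdhga5 stood at 10.7% in ACP, 8.04% in ACV and 8.78% in Larynx. Pcdhga6 at 2.96%, Pcdhga1 at 5.91%, and Pcdhga2 and Pcdhga3, both at 7.39%, were the rarest of the gamma-a genes. Of the gamma-b genes Pcdhgb6 led at 9.85%, with 15.3% in ACV and 1.92% in Larynx, and Pcdhgb1 followed at 9.36%, with 5.10% in ACV and 17.3% in Larynx. Thinned to equal depth, Pcdhgb6 stood at 5.82% in ACV and 2.12% in Larynx, and Pcdhgb1 at 3.11% and 15.9%. Pcdhgb7 came next at 4.93%. Pcdhgb8, the pseudogene, was present in 0.985% of neurons, Pcdhgb5 in 2.96% and Pcdhgb2 in 3.45%. The correlation of the share of neurons with the length of the first exon was -0.31 over 8 alpha, 0.28 over 22 beta, 0.04 over 12 gamma-a, -0.28 over 7 gamma-b and -0.48 over 5 C-type genes. With the place along the cluster it was -0.06, 0.33, 0.40, -0.36 and -0.41 in the same order, all given as descriptions over few genes.

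Where an isoform was present its level differed between classes. Per kilobase of the gene's longest first exon, the median over neurons that held it was 0.148 counts per 10000 for alpha alternates. It was 0.0746 for beta (453 values), 0.0659 for gamma-a (258), 0.06 for gamma-b (73) and 0.14 for C-type genes (236). Pcdha10 had no exon length and was left out of the alpha values on this scale, but is among the 249 alpha values in raw reads. On this scale Pcdhac2 had a median of 0.2 and Pcdhgc4 of 0.0963. The quartiles of the classes overlapped, at 0.0661 to 0.322 for alpha and 0.0344 to 0.127 for gamma-a. In raw reads the median was 39 for alpha, 33 for beta, 21 for gamma-a and 17 for gamma-b, so the gamma isoforms lay closest to the limit of 5 reads. Summed over neurons the family took 69817 reads, of which beta genes gave 37.7%, C-type genes 23.9%, alpha alternates 23.7% and gamma alternates 14.6%. Per neuron the family had a mean of 3.73 ± 2.82 counts per 10000 in ACP, 2.85 ± 2.24 in ACV and 3.89 ± 2.78 in Larynx, with a highest value of 14.5 in a Larynx neuron.

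Within a cluster a neuron's reads tended to fall on few genes. Among neurons with at least 20 reads from the cluster, the top isoform held a median of 86.4% of the alpha alternate reads, 64.8% of the beta reads and 62.2% of the gamma alternate reads. For alpha the median was 77.7% in 40 ACP, 87.5% in 56 ACV and 79.3% in 29 Larynx neurons, and the top isoform held 90% or more of the reads in 17, 27 and 14 of them. For beta the median was 51.8% in 42 ACP, 70.5% in 73 ACV and 65.6% in 43 Larynx neurons, and 90% was reached in 11, 19 and 13. For the gamma alternates it was 56.5% in 35 ACP, 66.7% in 52 ACV and 73.1% in 25 Larynx neurons, and 90% was reached in 4, 9 and 8. In each cluster the ACP median was the lowest. The clusters differ in the number of genes with reads, so these shares do not rank the clusters.

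The alternates present in a neuron were taken as its combination, and combinations hardly recurred. The 49 ACP neurons with at least 1 alternate held 49 distinct combinations, the 90 ACV neurons held 89 and the 49 Larynx neurons held 49. Over all types 3 combinations recurred, each in 2 neurons, and all were short. They were Pcdha5 with Pcdhb7 in 1 ACP and 1 Larynx neuron, Pcdhb12 alone in 1 ACP and 1 Larynx neuron, and Pcdhb16 alone in 2 ACV neurons. Identical pairs were thus 3 of 17578 pairs of neurons. With 1 read as the limit 1 pair was identical, with 10 reads 7 were and with 20 reads 23 were. How often sets would recur if isoforms were drawn independently at their shares was not computed. The sets also depend on detection, since the number of alternates had a correlation of 0.71 with genes detected. The few repeats alone thus do not show a set particular to each neuron.

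Taken alone, each cluster separated neurons less. The alpha alternates gave 29 combinations in 43 ACP neurons, 32 in 63 ACV neurons and 20 in 36 Larynx neurons. Over all types they gave 56, and the most frequent were Pcdha2 alone and Pcdha5 alone, each in 17 neurons. Pcdha2 alone was found in 6 ACP, 8 ACV and 3 Larynx neurons, and Pcdha5 alone in 6, 5 and 6. Pcdha12 alone was found in 10 neurons, 8 of them ACV. The beta genes gave 43 combinations in 45 ACP, 68 in 78 ACV and 44 in 46 Larynx neurons, and the gamma alternates gave 36 in 41, 50 in 68 and 27 in 33. The frequent alpha sets were thus found in every type.

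Pairs of neurons had few alternates in common, whatever their types. Both neurons of a pair lacked a common alternate in 38.3% of the 1176 ACP pairs, 58.2% of the 4005 ACV pairs and 54.4% of the 1176 Larynx pairs. Between types this held for 47.6% of ACP and ACV pairs, 46.8% of ACP and Larynx pairs and 57.1% of ACV and Larynx pairs. The mean Jaccard index, the number of shared alternates divided by the number present in either neuron, was 0.0849 within ACP, 0.0623 within ACV and 0.0700 within Larynx, and 0.0713, 0.0771 and 0.0623 between types. Pairs of the same type were thus not more alike than mixed pairs as a rule: ACP and Larynx pairs shared more than ACV pairs or Larynx pairs did. The pair with most in common were ACV neurons that shared 14 alternates of 17 and 18, with 10946 and 11464 genes detected. Pairs are not independent, since each neuron enters many of them, and the numbers follow the number of isoforms per neuron, which was highest in ACP.

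**Figure D5:**
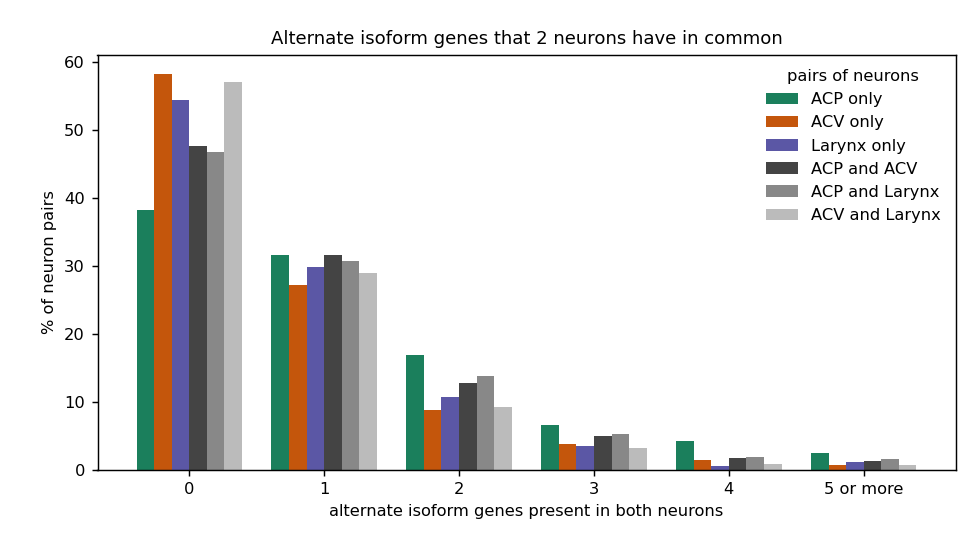
Percent of neuron pairs (vertical axis) by the number of alternate isoform genes present in both neurons (horizontal axis), for pairs within each type and between types, over neurons with at least 1 alternate. ACP pairs have the fewest without a common alternate (38.3%) and ACV pairs the most (58.2%), with the mixed pairs in between.

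Isoforms met in the same neuron somewhat more often than their shares alone would give. Over the 1225 pairs of alternates with reads, 3606 joint occurrences were counted, and the products of the shares sum to 2558, a ratio of 1.41. The ratio was 1.22 within the alpha cluster, 1.32 within beta, 1.57 within the gamma alternates and 1.43 between clusters. Neighbours on the chromosome, at 1.36, were close to non-neighbours of the same cluster, at 1.38. The variance of the number of alternates between neurons also exceeded the sum of the variances of the genes taken separately, by a ratio of 3.74 in ACP, 3.32 in ACV and 2.77 in Larynx, and the numbers of alpha and beta isoforms per neuron had a correlation of 0.51. Genes detected, which ran alongside the number of alternates at 0.71, moved with all of these values, and its part in them was not tested.

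Mean levels were compared between types for members with at least 5 reads in 10% or more of the neurons of either type, with 0.01 per 10000 counts added to both means. In 1 or more comparisons 38 of the 58 members passed, and the 20 others were too rare. Between ACP and ACV 13 of 37 members were past 2-fold higher in ACP and 4 higher in ACV, where the background over 12494 genes was 12.9% in either direction (7.26% for ACP, 5.68% for ACV). Between ACP and Larynx 6 of 34 were higher in each, beside 17% of all genes (7.87% for ACP, 9.16% for Larynx). Between ACV and Larynx 2 of 28 were higher in ACV and 11 in Larynx, beside 18.7% of all genes (7.54% and 11.2%). Many members passed through 1 type only, and a gene that passes only where it is high tends to differ. Between ACP and ACV, 12 passed only through ACP, 7 of them past 2-fold and higher there, and 4 only through ACV, 3 of them past 2-fold and higher there. Of the members that passed in both types, 5 of 21 were past 2-fold higher in ACP and 1 in ACV. For ACP and Larynx this was 1 of 19 in ACP and 5 in Larynx, and for ACV and Larynx it was 0 of 17 in ACV and 8 in Larynx. The median log2 difference of the members was 0.39 for ACP over ACV, -0.11 for ACP over Larynx and -0.75 for ACV over Larynx, and that of all genes was 0.01, -0.02 and -0.02. When counts were divided by the total with Rn45s included, the median of all genes moved by 0.56 for ACP over Larynx and by 0.50 for ACV over Larynx, and 88% and 81.2% of the genes past 2-fold were then higher in the cardiac type, in place of 46.2% and 40.3%. On that scale 4 members in place of 13 were past 2-fold between ACV and Larynx.

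A fold of a gene found in few neurons rests on those neurons. With each neuron left out in turn, 5 of the 17 members past 2-fold between ACP and ACV stayed past it whichever neuron was missing, 4 of the 12 between ACP and Larynx and 7 of the 13 between ACV and Larynx. The 12, 8 and 6 others dropped below 2-fold without 1 neuron. The members thus stayed in 29.4%, 33.3% and 53.8% of cases, and of all genes past 2-fold 58.2%, 55.1% and 63.2% stayed. An example is Pcdhga11, which was 1.37 log2 units lower in ACP than in Larynx, and 0.53 higher once the Larynx neuron that carried 79.3% of its Larynx level was left out. Among the genes that stayed, Pcdhgc4 was lower in ACV than in Larynx by a log2 difference of -1.38 (-1.66 to -1.01 with 1 neuron left out) and Pcdhgc3 by -1.65 (-1.82 to -1.02). With Rn45s included in the total, these differences were -0.84 for Pcdhgc4 and -0.82 for Pcdhgc3, below 2-fold. Between ACP and ACV, Pcdhgc4 was higher in ACP by 1.05, which fell to 0.85 without 1 neuron. Pcdha12 was higher in ACV than in Larynx by 3.19 (2.96 to 3.60) and higher in ACP than in Larynx by 1.77 (1.27 to 2.19). It was lower in ACP than in ACV by a log2 difference of -1.41 (-1.92 to -1.18). Against Larynx, Pcdha12 passed the filter only through the cardiac type, with 5.77% of Larynx neurons at 5 or more reads.

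Other members past 2-fold whichever neuron was left out were named after their values were seen. Between ACP and ACV they were Pcdhb11 at 1.58, present in 20.8% of ACP and 4.08% of ACV neurons, Pcdhb17 at 2.08, present in 24.5% and 10.2%, Pcdhga9 at 1.41, and Pcdhb2 at -1.86. Pcdhb2 was below 5 reads in all 53 ACP neurons, where 3 neurons would be 5.66%, and was present in 10.2% of ACV neurons. Pcdhb11 and Pcdhga9 passed the filter only through ACP and Pcdhb2 only through ACV. For ACP over Larynx they were Pcdha2 at 1.44, Pcdhga2 at 2.18 and Pcdhgb1 at -1.76. For ACV over Larynx they were Pcdha9 at -1.57, Pcdhb18 at -2.01, Pcdhb20 at -1.39 and Pcdhgb1 at -1.48, and with Rn45s included in the total Pcdha9 at -0.92 and Pcdhb20 at -0.90 were below 2-fold. For ACP over Larynx, Pcdhga2 passed the filter only through ACP and Pcdhgb1 only through Larynx. For ACV over Larynx, Pcdhb18 and Pcdhgb1 passed only through Larynx. Comparisons between types share their neurons, so the values of a gene in different comparisons are not independent.

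The genes around the clustered protocadherins were followed in a list of 40, with 20 for transcription and chromatin and 20 for binding partners and proteases, and 38 passed the filter. For ACP over ACV 1 of the 38 was past 2-fold: Pds5a, a cohesin regulator, was higher in ACP by 1.51 (log2). For ACP over Larynx 5 were, with Pds5a at 1.15, the cohesin subunit gene Stag2 at 1.36 and the histone deacetylase gene Hdac1 at 1.09 higher in ACP, and the cohesin subunit gene Rad21 at -1.45 and the receptor kinase gene Ret at -2.39 higher in Larynx. For ACV over Larynx 5 were, with Prkca, a protein kinase C gene, at 1.01 higher in ACV, and Ret at -2.99, the WAVE complex genes Wasf1 at -1.27 and Nckap1 at -1.06, and the neuroligin gene Nlgn1 at -1.12 higher in Larynx. These shares lay below the backgrounds of 12.9%, 17% and 18.7%. The spread over neurons was wide: Rad21 stood at 0.23 ± 0.318 counts per 10000 in ACP and 0.646 ± 1.43 in Larynx. It was present in 60.4% of ACP and 61.5% of Larynx neurons. In ACP, Stag2 stood at 0.266 ± 0.788 and Pds5a at 0.237 ± 0.737.

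Ret, whose product binds clustered protocadherins, stood out by size, with means of 1.77 ± 1.85 counts per 10000 in ACP, 1.16 ± 1.81 in ACV and 9.27 ± 9.08 in Larynx, and at least 5 reads in 88.7%, 77.6% and 96.2% of neurons. Ctcf, which codes for the factor that pairs promoters with enhancers in the clusters, was present in 67.9%, 59.2% and 65.4% of neurons and differed by less than 2-fold in each comparison. Dnmt3a, a de novo DNA methyltransferase gene, was present in every neuron at 5.51 ± 3.06, 6.83 ± 2.95 and 5.55 ± 2.73 counts per 10000. Dnmt3b, the related methyltransferase gene, did not pass the filter, with at least 5 reads in 3.77% of ACP, 2.04% of ACV and none of the Larynx neurons. Ctcf, Dnmt3a and Dnmt3b were named for their roles after their values were seen.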

How the data were processed

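Raw read counts per gene and neuron, deposited by the authors, were used. The authors trimmed reads with Skewer, aligned them with STAR 2.6.1d to mm10 and, per their methods, removed neurons with few aligned reads or over 1800 Apoe counts, although 39 deposited neurons exceed that limit. The counting program and its annotation are not given in the sources used here. Neuron types are an entry of another kind in the deposited annotation. ACP and ACV came from the authors' clustering of the heart-traced neurons, which drew on the same expression values. The Larynx type held all neurons traced from the larynx and no others. A deposited CPM table was not used.

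Counts were divided by the neuron's counts outside Rn45s, and type means weight neurons equally. Thinning to 300000 counts gives the exact expected number of genes at 5 or more reads. Genes were named by a rule: the 5 C-type genes, the 3 most and 3 least frequent alternates of the alpha, beta, gamma-a and gamma-b genes, genes with shares 20 points apart, and listed pathway genes past 2-fold. Members, lists and rules were chosen with earlier results of these data known. Exon lengths and overlaps came from RefSeq and GENCODE, where 57 of 58 members matched the latter. Scripts ran on Python 3.11.15, numpy 2.4.6, pandas 2.3.3 and scipy 1.17.1, with edgeR 4.0.16 (TMM) and DESeq2 1.42.0 (size factors) for scaling only in R 4.3.3, and were tested on simulated data. No sequence of the clusters is shown.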

Additional observations from a re-analysis of the deposited data

How the results depend on the processing

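Of 71 alternative values computed, 62 moved by less than the spread over neurons, the binomial interval or, for counts, 1.5 times. For mean numbers of isoforms the spread over neurons exceeded the differences between types, so this limit cannot show that the order of types held. Thinning, which left out 8 Larynx neurons, counted as within it. It took the ACV and Larynx means from 5.80 and 5.69 to 4.08 and 4.94. Read limits, thinning, a depth minimum of 1000000, an Apoe maximum of 900, other scalings and filters were tried. Added after seeing the data were neurons with at least 6000 genes detected or at most 1800 Apoe counts, and leaving out each neuron. At 20 reads Pcdhgc4 was present in 21.2% of Larynx neurons (44.2% at 5 reads). With summed counts 11 members were past 2-fold between ACP and ACV (17). With Rn45s in the total, 4 members were past 2-fold between ACV and Larynx (13), as were 3, 9 and 9 pathway genes (1, 5 and 5) in the order ACP and ACV, ACP and Larynx, ACV and Larynx. Members past 2-fold whichever neuron was left out numbered 5, 4 and 7 in that order (17, 12 and 13). Over neurons with at most 1800 Apoe counts the mean number of isoforms was 7.62 in 42 ACP, 5.53 in 70 ACV and 5.69 in 52 Larynx neurons. With at most 900 Apoe counts this mean was 7.65 in 26 ACP, 5.02 in 44 ACV and 5.08 in 38 Larynx neurons. In these neurons Pcdhac2 was present in 53.8%, 52.3% and 34.2%, and Pcdhgc4 in 30.8%, 18.2% and 39.5%. Fewer counts outside Rn45s in Larynx limit what could be detected there. No paired analysis was possible because the result comes from no test and neurons carry no shared replicate numbers.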

Other observations

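The pair of alternates whose presence had the highest correlation across neurons (phi, 0.446) was Pcdhb6 and Pcdhb8, present in 13 and 12 neurons and together in 6, where the product of their shares gives 0.768. The 6 neurons were 1 ACP, 4 ACV and 1 Larynx neuron. Pcdhb19 and Pcdhga5, of different clusters, met in 15 neurons where the product gives 4.88, and Pcdhga11 and Pcdhga2 in 10 where it gives 2.73. These pairs were picked from 1225 by their values and were not tested.

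Near-identical stretches limit how surely reads can be assigned. Stretches of 75 bases, the read length, were compared between the first exons of the members only. Up to 13.9% of them in the alpha genes, 13.3% in the gamma-b genes and 8.96% in the beta genes also occur in another member's first exon. In the C-type genes none do, and later exons, with the constant exons among them, were not compared. The first exons of Pcdhb21 and Pcdhb22 overlap on the same strand. That of Pcdhgc5, taken at 5426 bases, overlaps exons of the gamma-a and gamma-b genes and of Pcdhgc3 and Pcdhgc4 on the same strand. Part of it is thus not its own, and this length entered the correlation with exon length and the values per kilobase. The first exon of Pcdhga4 overlaps Pcdhgb1 in this way, and that of Pcdhga8 overlaps Pcdhgb4. Those of Pcdha4, Pcdha6, Pcdha7 and Pcdha11 overlap genes outside the list of members. Antisense genes overlap Pcdha11, Pcdha12, Pcdhb12, Pcdhga1 and Pcdhgc3 among others, and without strand their reads cannot be told apart.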
